A study of Homo sapiens with 8 samples.

Results

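Transcripts that extend a reference transcript were examined here. They carry class code k in the authors' combined transcript assembly, which means that an assembled transcript holds every intron of an annotated transcript and continues past it at 1 end or both. The members were all transcripts with this code, 16692 of the 98350 in the assembly (17.0%), and 16515 of them were joined by identifier to the deposited count table of 96614 transcripts. They belong to 6526 of 21221 genes. The libraries were polyadenylated RNA of H1, a human embryonic stem cell line in long use, read as long molecules on a PacBio Sequel II. There were 2 repeats each of undifferentiated pluripotent cells (hPSC), kept in mTeSR1 medium on Matrigel, and of ectoderm, endoderm and mesoderm cells made from them in culture and collected after 5 days. Endoderm medium held WNT3A and Activin A. Mesoderm medium held VEGF, BMP4 and bFGF, with Activin A on the starting day only, and ectoderm medium held the inhibitors A83-01, PNU-74654 and Dorsomorphin. All groups come from 1 cell line, and the labels name no genetic change. The labels do not say whether repeats were separate cultures, so p-values measure only the spread between these libraries, which may be technical.

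A gene's messenger RNA depends on where transcription starts, which introns are spliced out, and where the transcript is cleaved and given its poly(A) tail. Annotations hold many partial transcripts, among them fragments with an open end and transcripts in which an intron was kept. A long read that runs through such a fragment and on into the rest of the gene is given class k, while a transcript with a differing intron chain is given class j and an exact match is given "=". An added exon at the 5' side moves the start of the transcript upstream, and an added exon at the 3' side moves its end downstream.

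The splice junctions that join an extension to the exons of its reference show what it looks like in sequence. Each line below gives the last 15 bases before a splice junction and the 15 bases after it, 5' to 3' on the transcript's strand, from GENCODE 29 on GRCh38. Capitals mark the added exon, and lower case marks the exon next to it, which holds a terminal exon of the contained reference. In ADD1, LCP1 and VDAC2 all 15 lower-case bases are in the reference. In the other 6 they lie in a part of that exon by which the class k transcript is longer than the reference. These transcripts were chosen because the results on level or on share of the gene turn on them.
FLNA, 5' side, intron chrX:154371362-154374505, minus strand: TCTCAGGAACAGCAGcgcaacctctgctcc
ADD1, 5' side, intron chr4:2844025-2875895, plus strand: CGATTCGCTTCTGAGgaacctagaaagatt
LCP1, 5' side, intron chr13:46182226-46183908, minus strand: CTTTCCTTCTCCAAGtcacttcctgccttg
IVNS1ABP, 5' side, intron chr1:185306626-185307013, minus strand: GAGCTGATGGAAGAGgtttattaacaaaac
DDX39B, 5' side, intron chr6:31535486-31536499, minus strand: TGCTTGAACAGCTCGacatgcgtcgggatg
SLC44A2, 5' side, intron chr19:10636757-10637643, plus strand: ATCAGCGGCTGAAAGctgcagagaacaagt
FEZF1, 3' side, intron chr7:122303312-122303636, minus strand: gaagtgtgtggaaagGTCTTTAATGCGCAC
VDAC2, 3' side, intron chr10:75220971-75222251, plus strand: gctacacactaatgtCAATGATGGGACAGA
RBMX, 3' side, intron chrX:136870418-136872267, minus strand: gtaagaaatgctaagAGTTGTTGAAGCAGA
All 9 of these introns are annotated in GENCODE 29.

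The contained reference could be given a structure for 15860 of the 16692 class k transcripts. Of these, 6403 (40.4%) added exons at the 3' side only, 5281 (33.3%) at the 5' side only and 3050 (19.2%) at both sides. Another 1126 (7.10%) added bases but no exon, and 1094 of those have a single exon. For the 14947 whose reference is listed in GENCODE 29 under the same version, every one held the reference's intron chain unbroken. The extensions are long against the fragments they contain: class k transcripts had a median length of 4031.5 nt and 11 exons, and the contained references a median of 719 nt. Transcripts that match a reference had a median of 2776 nt and 7 exons.

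**Figure D1:**
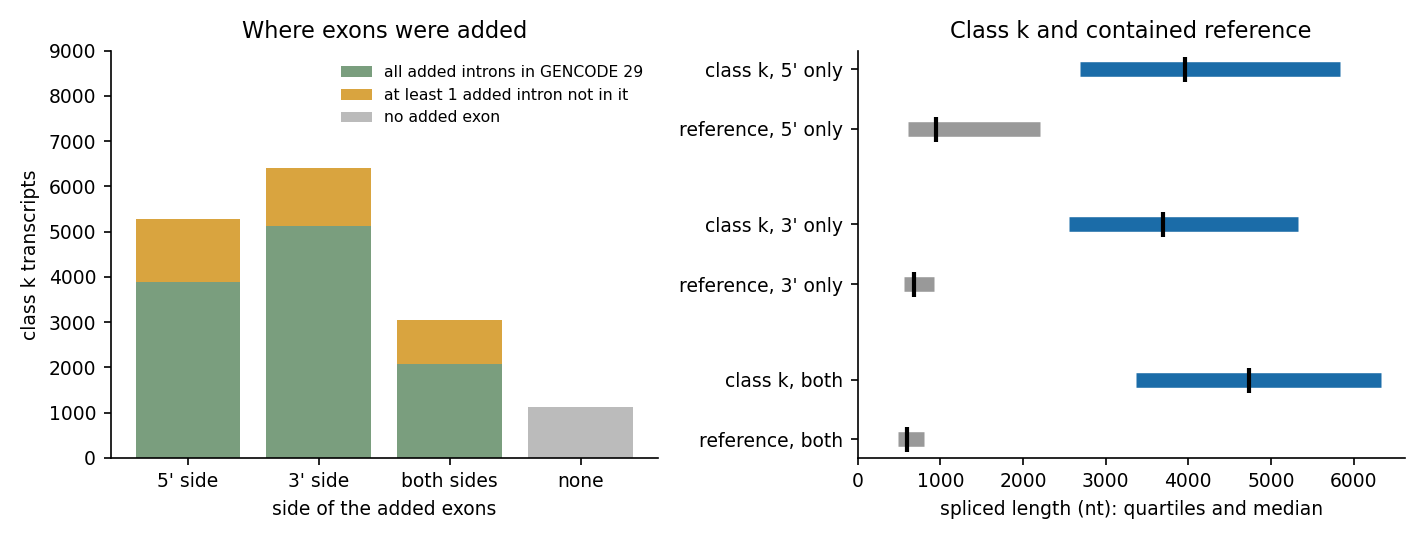
Left: number of class k transcripts (vertical axis) by the side of the added exons, coloured by whether all added introns are in GENCODE 29. Right: quartiles (bars) and medians (black ticks) of the spliced length in nt of class k transcripts and of the references they contain, where the class k medians of 3689 to 4730 nt lie far above the reference medians of 595 to 952 nt.

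Exons added at the 5' side alone came to a median of 4 exons and 1441 nt, and the transcripts started a median of 18293 nt upstream of the contained reference on the genome. Exons added at the 3' side alone came to a median of 5 exons and 2688 nt, and the transcripts ended a median of 12008 nt downstream. A single added exon was the whole extension for 1163 (22.0%) of the 5' group and 1126 (17.6%) of the 3' group. Extension at both sides added a median of 10 exons around the shortest references. The added parts were mostly built from known splicing: 116250 of 121728 added introns (95.5%) are in GENCODE 29, and all added introns are known in 11068 of 14734 transcripts (75.1%). That share was 73.6% at the 5' side, 79.9% at the 3' side and 67.7% for both. An added exon overlapped another annotated gene in 1667 transcripts (11.3%), and a protein-coding one in 715 (4.85%).

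The references differ with the side. An open 3' end in the annotation marked 2770 of 6352 contained references (43.6%) where exons were added at the 3' side, and an open 5' end marked 1409 of 5221 (27.0%) where exons were added at the 5' side. References annotated as retained_intron, a transcript class that keeps intron sequence and is given no coding sequence, made up 25.5% of the 5' group, 18.1% of the 3' group and 35.6% of those extended at both sides. A complete annotated coding sequence lay in 3789 class k transcripts (25.7%), against 1485 of the references they contain (10.1%). The gain was greatest at the 3' side, with 2212 (34.5%) against 439 (6.86%). At the 5' side it was 1276 (24.2%) against 998 (18.9%). Among matches to a reference, 21443 of 27176 (78.9%) held one. Class k starts lay within 50 nt of an annotated start for 71.8% of the 5' group, 83.8% of the 3' group and 73.3% of those extended at both sides, against 85.4% of matches. In the 5' group and in those extended at both sides the extension sets the start.

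Class k transcripts often kept introns that are spliced out of the coding transcripts. An annotated coding intron of at least 60 nt lay wholly inside an exon of 5799 of 16515 (35.1%), against 4266 of 31818 matches (13.4%) and 2040 of 20760 class j transcripts (9.83%). Part of this may come with the definition, since the references contained include retained_intron transcripts. Of the 3567 class k transcripts on those, 2872 (80.5%) held such an intron. How often the intron lies inside the contained reference was not counted. On references of other types the share was 23.1%. Other transcripts with retained introns have class codes of their own in the assembly, so the low class j share comes partly with the definition. An example is DDX39B, where an exon of the class k transcript runs through an annotated intron of 1374 nt, chr6:31531406-31532779. This intron does not lie wholly inside an exon of the contained reference. Its edges follow, with the intron in capitals, because the gene's share result turns on this transcript.
DDX39B, upstream edge: cttgagttcaaccagGTCAGTTAGACGTCC
DDX39B, downstream edge: CCCACCCCACAACAGgtggtgatctttgtg

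Depth differed between libraries. The total counts were 519306 and 562042 reads in hPSC, 585558 and 586183 in endoderm, 1180888 and 967206 in ectoderm and 531106 and 503840 in mesoderm. A count of 0 therefore allows up to 3 counts, which is 2.54 to 5.95 CPM (read counts scaled to library depth), and covers counting error only. Most members were rare: 9047 of 16515 had fewer than 10 counts over the 8 libraries, and the 1000 most abundant held 46.6% of the 338243 class k counts. Of the fixed marker lists, the endoderm list summed to 2288 to 2392 CPM in endoderm and at most 15.1 CPM elsewhere, and the mesoderm list to 1058 to 1151 CPM in mesoderm, carried by HAND1, BMP4 and TBX3, with TBXT, MIXL1, FOXF1 and KDR at 0 to 1.98 CPM there. The ectoderm list summed to 1086 to 1310 CPM in ectoderm and to 420 to 425 CPM in endoderm, where OTX2 carried it. Markers of amnion or trophoblast also summed to 5575 to 6065 CPM in mesoderm, with 0 of 9 at 0, against 6.20 to 80.3 CPM elsewhere. Fibroblast or mesenchyme markers summed to 5577 to 6226 CPM there. Pluripotent markers, 3459 to 3657 CPM in hPSC, summed to 1271 to 1708 CPM in ectoderm, 1696 to 1990 CPM in endoderm and 274 to 292 CPM in mesoderm. The ectoderm sum was carried by LIN28A, DPPA4 and SOX2, while POU5F1 was at 4.23 and 16.5 CPM there, against 716 and 626 CPM in hPSC, and NANOG and TDGF1 were at most 2.54 CPM.

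Class k transcripts took more of the library in ectoderm and mesoderm than in hPSC and endoderm. Their share of all counts was 5.26% and 4.94% in the hPSC libraries, 4.89% and 4.92% in endoderm, 7.28% and 7.74% in ectoderm and 6.25% and 6.27% in mesoderm. Both ectoderm libraries and both mesoderm libraries lay above all others, and hPSC lay just above endoderm. The means were 5.10% ± 0.222 in hPSC, 4.91% ± 0.0166 in endoderm, 7.51% ± 0.325 in ectoderm and 6.26% ± 0.0202 in mesoderm (SD, n = 2 each). An exact permutation test over every way to divide the 8 libraries into 4 pairs gave p = 0.00952, the smallest it allows, and 0.0286 after Benjamini-Hochberg adjustment over 6 such values. In bulk RNA, fewer cells of a type and less RNA per cell cannot be told apart.

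The genes that have a class k transcript shifted in the same way. Counted over all their transcripts, they held 22.8% and 20.3% of the hPSC libraries, 29.4% and 30.6% of ectoderm, 19.7% in both endoderm libraries and 26.4% and 26.5% of mesoderm. A gene is in this set only if a class k transcript of it was assembled from some group's reads. Of the 13310 class k transcripts held by 1 assembly, 5731 were held by that of ectoderm, the deepest group. The part of this choice of genes in the shift was not tested. Within those genes the class k share was nearly level. It was 23.7% ± 0.912 in hPSC, 24.9% ± 0.0448 in endoderm, 25.05% ± 0.387 in ectoderm and 23.7% ± 0.00129 in mesoderm (SD, n = 2 each). The exact permutation p was 0.0857 before and after adjustment, and without hPSC repeat 1 or 2 it was 0.0381 and 0.0286. Taken as the median over the 2423 genes with a mean of at least 20 counts, the share was 14.6% in hPSC, 15.4% in endoderm, 17.2% in ectoderm and 16.4% in mesoderm (exact permutation p = 0.00952).

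**Figure D2:**
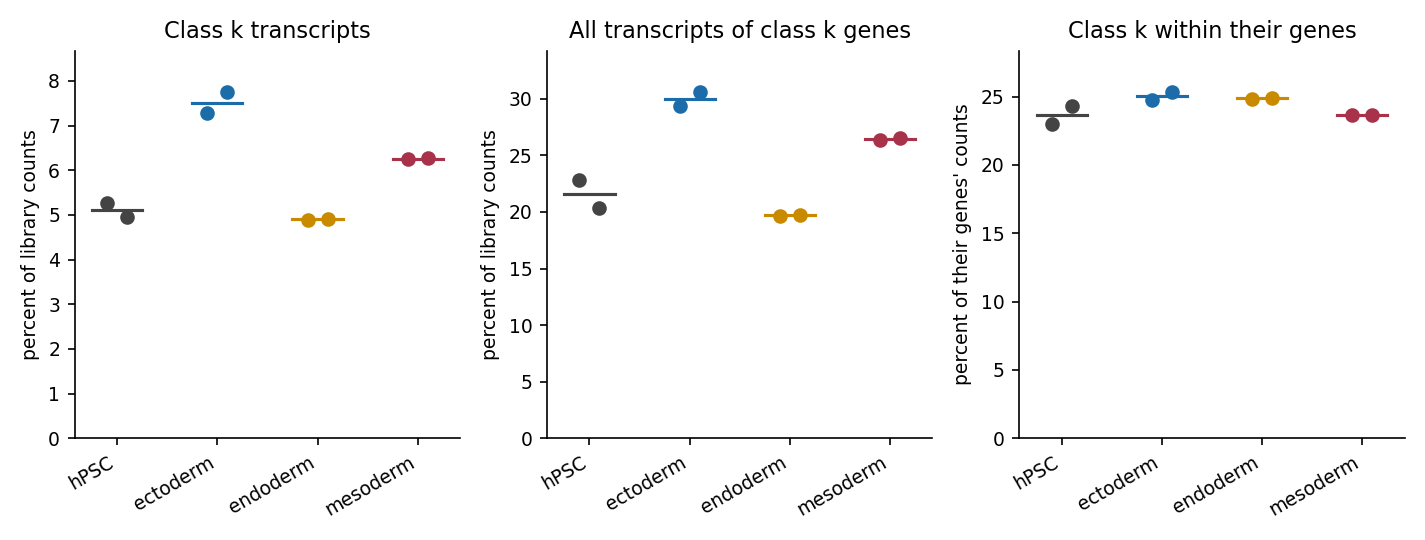
Points are libraries and bars group means, all in percent, for 4 groups of 2. The left panel shows class k counts of all counts, the middle one all counts of the genes that have a class k transcript, and the right one class k counts of the counts of those genes; the first 2 panels rise in ectoderm and mesoderm while the third stays between 23.0% and 25.3%.

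The length of the transcripts moved with these shares. The mean length of the assembled transcript to which a read was assigned was 3206 nt in hPSC, 3024 nt in endoderm, 4528 nt in ectoderm and 3802 nt in mesoderm, the same order of groups as the class k share of the library. Within transcripts of 2000 to 4000 nt the class k share of counts was 5.19% in hPSC, 5.44% in endoderm, 6.07% in ectoderm and 6.0% in mesoderm. In transcripts of at most 2000 nt it was 2.47% in hPSC, 2.75% in ectoderm and 2.06% and 2.00% in endoderm and mesoderm, so mesoderm no longer lay above hPSC there. Class j, the other kind of new splice form, held 5.58% of counts in hPSC, 7.49% in ectoderm and 4.78% and 5.84% in endoderm and mesoderm. The class k part of class k and class j counts together was 47.8% in hPSC, 50.7% in endoderm, 50.1% in ectoderm and 51.7% in mesoderm (exact permutation p = 0.0190). Class k transcripts of 1000 to 3000 nt alone turned the order round: they took 1.88% of all counts in hPSC, 1.92% in endoderm, 1.46% in ectoderm and 1.75% in mesoderm (exact permutation p = 0.0381).

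Many class k transcripts were held by the assembly of 1 group only, 13310 of 16692 (79.7%), and 5731 of those by the ectoderm assembly, which rests on the deepest libraries. Only 362 were held by all 4. Class k transcripts held by the ectoderm assembly alone took 0.864% of counts in hPSC, 0.817% in endoderm, 2.23% in ectoderm and 1.19% in mesoderm. Those held by the endoderm assembly alone took 1.13% in endoderm and 0.629% to 0.735% elsewhere, and those of mesoderm alone 1.28% in mesoderm and 0.441% to 0.936% elsewhere. Class k transcripts held by at least 2 assemblies also differed, at 2.24% in hPSC, 1.97% in endoderm, 2.89% in ectoderm and 2.53% in mesoderm. Those held by all 4 assemblies, looked at after the data were seen, were highest in hPSC at 0.703%, against 0.541% in endoderm, 0.668% in ectoderm and 0.638% in mesoderm. When every library was thinned to 503840 reads, 7360.5 ± 590 class k transcripts were detected in hPSC, 6693.5 ± 145 in endoderm, 9535 ± 158 in ectoderm and 8751.5 ± 139 in mesoderm (SD, n = 2 each; exact permutation p = 0.00952). Among transcripts of 1000 to 3000 nt p was 0.171, and among those held by all 4 assemblies it was 0.2, with mesoderm highest in both.

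The side of the extension varied less between groups. Of class k counts with a known side, 5' extensions took 35.4% in hPSC, 35.8% in endoderm, 36.8% in ectoderm and 38.9% in mesoderm (exact permutation p = 0.0571, adjusted 0.0857). Extensions at the 3' side took 51.4% in hPSC, 50.9% in endoderm, 46.3% in ectoderm and 46.3% in mesoderm (exact permutation p = 0.0857). Extensions at both sides took 13.2% and 13.3% in hPSC and endoderm and 16.9% and 14.7% in ectoderm and mesoderm (exact permutation p = 0.0286, adjusted 0.0571), so none of the 3 passed after adjustment. These shares depend on how a side is defined. Where any added base counted from 100 nt on, the 5' share was 22.6% in hPSC, 23.2% in endoderm, 19.5% in ectoderm and 22.9% in mesoderm, and the share at both sides was 30.4% to 41.6%. Where the reference structure came from the assembled match alone, the 5' share was 52.2% to 59.4% and the share at both sides 0.332% to 1.56%. Transcripts with a retained coding intron took 27.8% and 24.7% of class k counts in hPSC, 29.1% and 28.7% in endoderm, 33.1% and 34.0% in ectoderm and 34.2% and 34.1% in mesoderm. All 4 ectoderm and mesoderm libraries lay above the 4 others, with no test run on this value. Class k transcripts with a complete annotated coding sequence took 45.4% in hPSC, 44.7% in endoderm, 38.0% in ectoderm and 40.3% in mesoderm (exact permutation p = 0.0190, adjusted 0.114 over 8 such values).

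Class k transcripts were a minor form of most genes and the main form of some. Among the 2423 genes with a mean of at least 20 counts, the class k share over all libraries was 1% to 10% in 745 (30.7%), 10% to 50% in 1417 (58.5%) and at least 50% in 234 (9.66%). In 126 genes it was at least 50% in every group. The transcript with the highest level in a nuclear gene was that of FLNA, which codes for the actin crosslinker filamin A (chrX:154348524-154374634, minus strand). It has 47 exons, 1 more at the 5' side than FLNA-201. It held 45.4% and 45.3% of the gene's counts in hPSC, 46.1% and 42.7% in endoderm, 46.6% and 46.5% in ectoderm and 40.7% and 40.8% in mesoderm, lowest in both mesoderm libraries. Its level was 441 and 374 CPM in hPSC and 668 and 838 CPM in endoderm, a log2 fold change of 1.17 ± 0.30 (SE; edgeR adjusted p = 0.00834).

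ADD1 codes for adducin 1, a protein that caps actin and ties it to spectrin. Its class k transcript (chr4:2843857-2930062, plus strand) adds 1 exon at the 5' side of ADD1-206 and was higher in all 3 layers. Of 1032 tested class k transcripts, 6 were higher in all 3 layers and 22 were lower in all 3. The same was not counted over all tested transcripts. Levels of the ADD1 transcript were 125 and 87.2 CPM in hPSC, 275 and 300.2 in endoderm, 214 and 249 in ectoderm and 360 and 288 in mesoderm. All 6 layer libraries lay above both hPSC libraries, with log2 fold changes of 1.73 ± 0.31 in endoderm, 0.91 ± 0.31 in ectoderm and 1.52 ± 0.31 in mesoderm (SE; edgeR adjusted p = 0.000785, 0.0232 and 0.00145). Its share of the gene was 39.6% and 37.1% in hPSC and 52.1% to 63.2% in the layers, a difference that did not pass the test of transcript choice (edgeR adjusted p from 0.750 to 1). HNRNPK codes for an RNA-binding protein of the spliceosomal hnRNP group. Its class k transcript, also with 1 added 5' exon, stood at 304 and 445 CPM in hPSC, 186 and 183 in endoderm, 216 and 265 in ectoderm and 124 and 147 in mesoderm. The drop passed in ectoderm (log2 fold change -0.89 ± 0.31, edgeR adjusted p = 0.0291) and mesoderm (-1.59 ± 0.33, 0.00168), and the endoderm value was -0.77 ± 0.32 (0.0874).

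PRMT1, an arginine methyltransferase, gave the most abundant 3' extension. Its last exon lies on the neighbouring gene ADM5, and its level was 335 and 434 CPM in hPSC, 266 and 413 in endoderm, 193 and 151 in ectoderm and 126 and 137 in mesoderm. It fell in ectoderm (log2 fold change -1.41 ± 0.33, edgeR adjusted p = 0.00284) and mesoderm (-1.66 ± 0.34, 0.00155), while its share of the gene's counts stayed between 39.2% and 44.6%. The class k transcripts of HNRNPA1 and of EIF4G1, a scaffold of the translation initiation complex, did not pass in any layer. The most abundant class k transcripts of all were single-exon ones of the mitochondrial genome. One spans MT-CO3 and 634 nt before it and stood at 704 to 2749 CPM. The other is listed under the tRNA gene MT-TP and stood at 311 to 2279 CPM, and it runs opposite to the gene MT-CYB. Whether the counting used strand is not given in the sources used here, so reads of MT-CYB cannot be told apart from it.

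Tests of level were run on 12440 transcripts of all classes that passed a filter on low counts, and 1032 of the 16515 class k transcripts were among them. A rare transcript could pass through the group in which it is high, so the counts below describe the tested transcripts only. In ectoderm 298 class k transcripts were higher than in hPSC (28.9%, against 23.8% of all tested transcripts) and 122 lower (11.8%, against 22.1%). In endoderm 130 were higher (12.6%, against 13.1%) and 95 lower (9.21%, against 13.6%). In mesoderm 203 were higher (19.7%, against 16.5%) and 109 lower (10.6%, against 16.3%). The call was an adjusted p under 0.05 in edgeR's quasi-likelihood test. The median log2 difference over the tested class k transcripts was 0.50 in ectoderm, -0.16 in endoderm and 0.28 in mesoderm, against 0.01, -0.17 and 0.04 over all tested transcripts. All 3 comparisons share the hPSC libraries.

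These counts moved with single libraries and with the tool. Without ectoderm repeat 2 they were 181 higher and 54 lower in ectoderm, and without hPSC repeat 1 they were 409 and 193. Without endoderm repeat 1 they were 79 and 39, and without mesoderm repeat 2 115 and 50. DESeq2 called 113 higher and 52 lower in ectoderm, with 71 and 36 for endoderm and 80 and 49 for mesoderm. Of all 12440 transcripts DESeq2 called 11.6% higher and 11.7% lower in ectoderm, with 7.19% and 5.72% for endoderm and 8.38% and 8.77% for mesoderm. More class k transcripts were higher than lower in each layer with either tool, and in endoderm DESeq2's calls over all transcripts leaned the same way.

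The calls were also counted by the assembly that held a transcript. A transcript held by 1 assembly alone was put together from the reads of that group, which favours a high level there, so these counts are a description. Of all 12440 tested transcripts, 23.8% were higher and 22.1% lower in ectoderm, with 13.1% and 13.6% for endoderm and 16.5% and 16.3% for mesoderm. Of the 139 tested class k transcripts held by all 4 assemblies, 30 were higher and 25 lower in ectoderm, with 13 and 11 for endoderm and 27 and 20 for mesoderm. Of 175 held by the ectoderm assembly alone, 72 were higher and 14 lower in ectoderm, and of 122 held by mesoderm alone, 46 were higher and 6 lower in mesoderm. Of 122 held by endoderm alone, 38 were higher and 5 lower in endoderm. Of 91 held by hPSC alone, 18 were higher and 13 lower in ectoderm, with 2 and 15 for endoderm and 6 and 15 for mesoderm. Class k transcripts on a retained_intron reference numbered 145 among those tested, of which 54 were higher and 7 lower in ectoderm, with 12 and 11 for endoderm and 45 and 4 for mesoderm. By side, 104 of 317 were higher and 33 lower in ectoderm for 5' extensions, 131 and 78 of 528 for 3' extensions, and 40 and 3 of 113 for extensions at both sides.

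**Figure D3:**
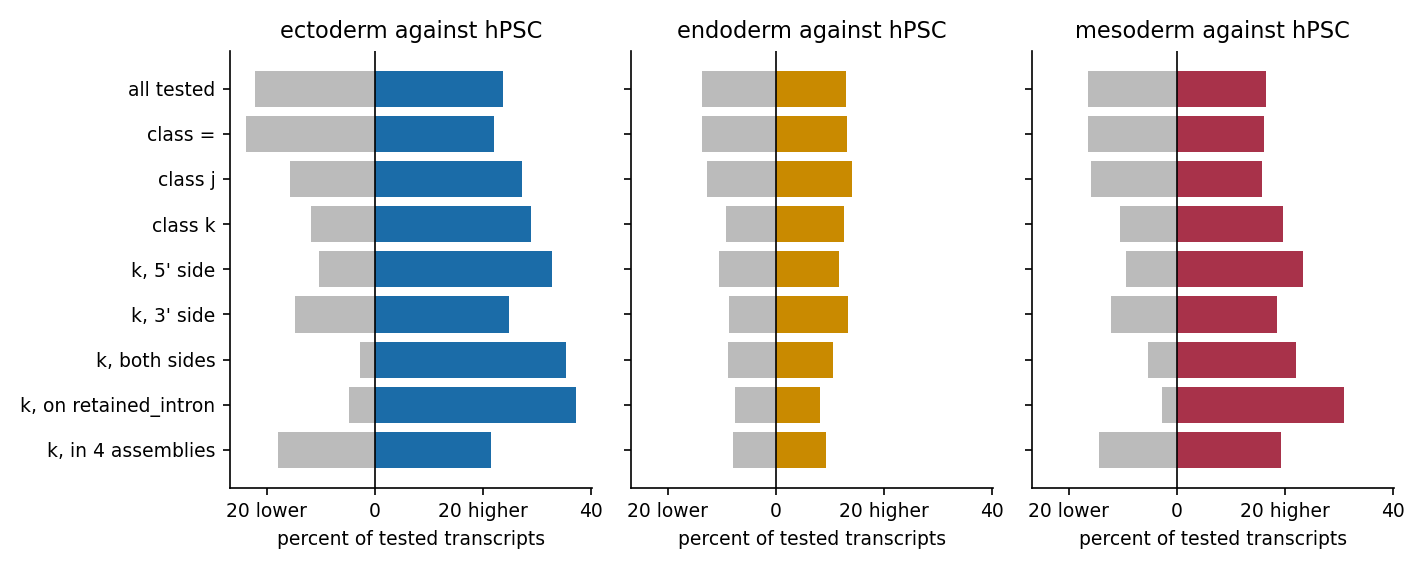
Percent of tested transcripts (horizontal axis) called higher (coloured bars, to the right) or lower (grey bars, to the left) than hPSC in each layer, for all tested transcripts, for classes "=", j and k, and for subsets of class k. In ectoderm 28.9% of class k was higher and 11.8% lower, while the class k transcripts held by 4 assemblies had nearly even bars.

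In ectoderm the rise with the smallest adjusted p was in the class k transcript of FEZF1, a zinc finger repressor of the developing forebrain. It lies at chr7:122301303-122310691 on the minus strand, holds FEZF1-201 and adds 3 exons at the 3' side. Its counts were 3 and 0 in hPSC, 0 and 0 in endoderm, 341 and 309 in ectoderm and 7 and 4 in mesoderm. The ectoderm libraries stood far above all others, 109 times the hPSC level (95% interval from counting error 37.2 to 530; edgeR adjusted p = 1.99e-06). The size rests on the 3 counts of 1 hPSC library: the fitted log2 fold change of 6.46 was 10.57 without hPSC repeat 1 and 5.58 without hPSC repeat 2. The whole FEZF1 gene rose as well, from 4 and 0 counts in hPSC to 890 and 680 in ectoderm. The share of its class k transcript did not pass the test of transcript choice. PRTG codes for protogenin, an immunoglobulin-family receptor of early neural tissue. Its class k transcript of 20 exons holds the short reference PRTG-202 and was counted 187 and 163 times in ectoderm and 41 and 49 times in mesoderm. In hPSC and endoderm all 4 libraries were at 0, so it was at least 58.7-fold higher in ectoderm and at least 31.3-fold higher in mesoderm than in hPSC, against a floor of 3 counts over the group (edgeR adjusted p = 2.04e-06 and 7.81e-06). The whole PRTG gene rose too, from 2 and 0 counts in hPSC to 509 and 439 in ectoderm and 127 and 137 in mesoderm. The transcript's share did not pass the test of transcript choice.

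TFPI codes for an inhibitor of the tissue factor coagulation pathway. Its class k transcript has 1 added 5' exon and was counted 90 and 85 times in ectoderm, 2 and 3 times in mesoderm and 0 times in hPSC and endoderm. It was at least 29.4-fold higher in ectoderm than in hPSC (edgeR adjusted p = 1.94e-05). It made up 86.5% and 87.6% of the gene's counts in ectoderm and 15.4% and 15.0% in mesoderm. In the test of transcript choice, the fitted change in share against hPSC was 4.70 in ectoderm and 4.71 in mesoderm on a log scale. Without hPSC repeat 1 or 2 the fitted changes were -0.047 in ectoderm and -1.36 in mesoderm. This gene's change of transcript was among the earlier results of these data and is no independent support. The falls in ectoderm with the smallest adjusted p were in genes listed by identifier. That of ENSG00000282048, a single-exon transcript, had 68 and 91 counts in hPSC, 6 and 3 in endoderm and 0 in ectoderm and mesoderm. That of ENSG00000274652, with 1 added 5' exon, had 33 and 42 in hPSC, 7 and 10 in endoderm, 0 and 1 in ectoderm and 0 in mesoderm. That of ENSG00000280056, whose added exons reach the noncoding gene LNCPRESS2, had 19 and 27 counts in hPSC and 0 to 2 in every other library. The hPSC libraries were the highest for all 3.

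In endoderm the rise with the smallest adjusted p was in RAB17, a small GTPase of epithelial membrane traffic, extended by 3 exons at the 5' side. Its level was 5.78 and 3.56 CPM in hPSC, 0 in both ectoderm libraries, 167 and 133 CPM in endoderm and 3.77 and 1.98 CPM in mesoderm. Endoderm lay above all other libraries, with a log2 fold change of 5.24 ± 0.49 (SE; edgeR adjusted p = 4.82e-06). LMNA, the gene of the nuclear lamins A and C, had a pair of class k transcripts, each with 1 added 5' exon joined by an intron absent from GENCODE 29. The one with the higher level in endoderm stood at 28.9 and 19.6 CPM in hPSC, 306 and 234 in endoderm, 5.93 and 8.27 in ectoderm and 198 and 133 in mesoderm. It rose in endoderm (log2 fold change 3.75 ± 0.38, edgeR adjusted p = 6.15e-06) and mesoderm (2.67 ± 0.38, 8.08e-05) and fell in ectoderm (-1.97 ± 0.48, 0.00358), and the other moved likewise. The reads of such near-identical transcripts may be split by the counting, so the values of each are uncertain. The whole LMNA gene had 121 and 66 counts in hPSC, 812 and 669 in endoderm, 110 and 83 in ectoderm and 522 and 427 in mesoderm.

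After ENSG00000282048, the falls in endoderm with the smallest adjusted p were in BUB1B and MCM3. BUB1B codes for a kinase of the spindle checkpoint. Its class k transcript of 22 exons extends a 4-exon retained_intron reference at both sides and was counted 31 and 17 times in hPSC, 1 and 1 in endoderm, 139 and 136 times in ectoderm and 18 and 13 in mesoderm. Endoderm was lowest and ectoderm highest, and hPSC stood at 26.0 times the endoderm level (95% interval from counting error 6.82 to 221; edgeR adjusted p = 0.000253). The whole BUB1B gene fell as well, from 79 and 70 counts in hPSC to 6 and 4 in endoderm. MCM3, a subunit of the replicative helicase, stood at 106 and 142 CPM in hPSC, 20.5 and 8.53 in endoderm, 150 and 124 in ectoderm and 49.0 and 35.7 in mesoderm. It fell in endoderm (log2 fold change -2.83 ± 0.44, edgeR adjusted p = 0.000261) and mesoderm (-1.66 ± 0.39, 0.00394), and its class k share of 3.91% to 14.2% moved less than its level.

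In mesoderm the class k transcript of LCP1, which codes for the actin-bundling protein L-plastin of blood cells, had 140 and 119 counts, against 3 and 2 in hPSC, 2 and 1 in ectoderm and 0 and 1 in endoderm. It adds 2 exons at the 5' side of LCP1-201, and 1 of its added introns is absent from GENCODE 29. The log2 fold change was 5.60 ± 0.48 (SE; edgeR adjusted p = 6.77e-07), and the transcript made up 65.4% and 67.6% of the gene's counts in mesoderm. The whole gene rose, from 4 and 2 counts in hPSC to 214 and 176 in mesoderm. Of the few hPSC counts the transcript made up 75% and 100%, and its share did not pass the test of transcript choice. The class k transcript of TNC, the gene of the matrix protein tenascin C, rose in all 3 layers, with 0 and 1 counts in hPSC, 34 and 23 in endoderm, 28 and 30 in ectoderm and 71 and 51 in mesoderm. The whole TNC gene had 11 and 13 counts in hPSC, 251 and 198 in endoderm, 343 and 346 in ectoderm and 553 and 415 in mesoderm. KAT7, a histone acetyltransferase, had 38 and 39 counts in hPSC, 11 and 11 in endoderm, 60 and 44 in ectoderm and 2 and 2 in mesoderm, a log2 fold change of -4.24 ± 0.53 in mesoderm (SE; edgeR adjusted p = 2.33e-05). Markers of amnion or trophoblast and of fibroblasts stood high in the same mesoderm libraries (5575 to 6065 and 5577 to 6226 CPM), and their part in these changes was not tested.

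A change in level can leave a gene's mix of transcripts as it was, so the choice between transcripts of a gene was tested as well. The test compared each transcript's fold change with that of its gene, over 6986 transcripts, 857 of them class k. In ectoderm 16 class k transcripts took a higher share of their gene than in hPSC (0.83% of all tested transcripts did) and 0 a lower one (0.429%), where 84 and 30 had an unadjusted p under 0.05 in edgeR's test and DESeq2 was not run on choice. In endoderm 9 took a higher share (0.658%) and 3 a lower one (0.444%), and in mesoderm 13 took a higher (0.873%) and 9 a lower one (0.773%). Single libraries moved these counts: 1 was higher in ectoderm without ectoderm repeat 2, 3 in endoderm without either endoderm repeat, and 2 in mesoderm without mesoderm repeat 2, while 12 were lower in ectoderm and 22 in mesoderm without hPSC repeat 1. The calls for DDX39B in ectoderm, VDAC2 in endoderm, and IVNS1ABP and TRO in mesoderm, described next, held with any 1 library of their groups left out. Of 829 tested class j transcripts, 8 had a lower share and 2 a higher one in ectoderm. In mesoderm 18 had a lower share and 3 a higher one. Endoderm went the other way, with 7 lower and 9 higher, the same number higher as for class k. The percentages given above for all tested transcripts apply to each layer here as well.

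DDX39B codes for an RNA helicase of splicing and mRNA export, and its class k transcript changed share in ectoderm. It adds 5 exons at the 5' side of the retained_intron transcript DDX39B-217 and keeps the 1374 nt intron. Its share of the gene's counts was 1.27% and 2.30% in hPSC, 3.06% and 1.29% in endoderm, 21.1% and 26.4% in ectoderm and 7.89% and 2.24% in mesoderm. Ectoderm lay above all other libraries (edgeR adjusted p = 0.00029). The counts behind it were 2 and 6 in hPSC and 38 and 28 in ectoderm. RBMX, an X-linked RNA-binding protein that takes part in splicing, gave a class k transcript with 1 added 3' exon. Its share was 5.23% and 4.09% in hPSC, 0.613% and 1.97% in endoderm, 17.1% and 22.7% in ectoderm and 8.47% and 12.1% in mesoderm, again highest in ectoderm (edgeR adjusted p = 0.000788, and 0.25 without ectoderm repeat 2). Its level rose in ectoderm (log2 fold change 2.16 ± 0.38, edgeR adjusted p = 0.000417) and fell in endoderm (-2.79 ± 0.64, 0.00459). A more abundant class k transcript of RBMX, with 2 added 3' exons, went the other way in ectoderm. It held 41.8% and 44.2% of the gene's counts in hPSC and 32.4% and 32.3% in ectoderm, a difference that did not pass the test of transcript choice.

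In endoderm the class k transcript of VDAC2, a channel of the outer mitochondrial membrane, rose in both level and share. It adds 3 exons at the 3' side of VDAC2-204, and it had 2 and 3 counts in hPSC, 59 and 56 in endoderm, 4 and 5 in ectoderm and 3 and 1 in mesoderm. Its share of the gene was 20.4% and 18.7% in endoderm and 0.833% to 4.85% in the other 6 libraries (edgeR adjusted p = 0.000208). GTF3C5, a subunit of the RNA polymerase III factor TFIIIC, had 39 and 41 counts in endoderm and 2 to 10 elsewhere. Its share was 21.2% and 24.7% in endoderm and 1.93% to 9.01% elsewhere (edgeR adjusted p = 0.0017, and 0.0615 without endoderm repeat 2). Another class k transcript of GTF3C5, extended at both sides, held 2.56% of the gene in hPSC, 4.86% in endoderm, 21.7% in ectoderm and 15.1% in mesoderm. Its share was called higher in ectoderm and mesoderm (edgeR adjusted p = 0.00116 and 0.0184), so extension of this gene was not particular to endoderm. Shares of TDP1 and SEPTIN9 fell in endoderm, to 0% from 13.3% and 18.8%, and to 1.52% and 2.55% from 19.3% and 16.7% (edgeR adjusted p = 0.0198 and 0.0200). Neither call held without endoderm repeat 1 (0.384 and 0.361), without endoderm repeat 2 (0.509 and 0.263), for TDP1 without hPSC repeat 2 (0.0737), or for SEPTIN9 without hPSC repeat 1 (0.102).

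Among the mesoderm changes, IVNS1ABP, a kelch-domain protein that binds actin, had the smallest p. Its class k transcript joins 7 added 5' exons to the retained_intron reference IVNS1ABP-207. The share was 1.81% and 1.94% in hPSC, 11.1% and 11.6% in endoderm, 10.99% and 9.79% in ectoderm and 29.8% and 37.9% in mesoderm. All 6 layer libraries lay above hPSC, with edgeR adjusted p = 0.0198 in endoderm, 0.00292 in ectoderm and 6.28e-08 in mesoderm. The ectoderm call was lost without ectoderm repeat 1 (0.132) or 2 (0.117), and the endoderm call without endoderm repeat 1 (0.347) or 2 (0.365) or hPSC repeat 1 (0.0554). TRO, which codes for the adhesion protein trophinin, went from 2.20% and 2.52% in hPSC to 22.1% and 26.4% in mesoderm, with 4.29% to 8.38% in the other layers (edgeR adjusted p = 1.46e-05). Both genes were among the earlier results of these data and are no independent support.

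Falls in share in mesoderm were led by SLC44A2, a choline transporter, and SUN1, a protein of the inner nuclear membrane, both extended at the 5' side. The class k share of SLC44A2 was 19.3% and 23.8% in hPSC, 38.2% and 41.8% in endoderm, 12.4% and 11.6% in ectoderm and 1.59% and 4.19% in mesoderm (edgeR adjusted p = 9.42e-05, and 0.114 without mesoderm repeat 1). Mesoderm was lowest and endoderm highest. The share of SUN1 was 10.9% in both hPSC libraries, 6.90% to 15.3% in ectoderm and endoderm and 0.413% and 0.948% in mesoderm (edgeR adjusted p = 0.00076, and 0.0813 without mesoderm repeat 1). KAT7 fell in share as well, from 31.7% and 19.7% to 2.74% and 3.08% (edgeR adjusted p = 0.00711, and 0.233 and 0.215 without mesoderm repeat 1 or 2).

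COL1A1, NELFCD and SRRM1 were chosen after their values were seen. The class k transcript of COL1A1, the gene of a chain of fibrillar collagen, holds 50 exons, of which the reference COL1A1-211 has 4. It made up 13.1% and 25% of the gene's counts in hPSC, 75% and 82.5% in endoderm, 11.4% and 11.7% in ectoderm and 8.01% and 5.21% in mesoderm. Endoderm lay far above the rest (edgeR adjusted p = 0.00939), on 24 and 33 counts, and the call did not hold without endoderm repeat 1 (0.179) or 2 (0.229). In mesoderm its level rose (log2 fold change 2.38 ± 0.37, edgeR adjusted p = 0.000148) while its share was lower (0.0494, and 0.575 without hPSC repeat 2, 0.237 without mesoderm repeat 1 and 0.793 without mesoderm repeat 2). NELFCD, a subunit of a factor that pauses RNA polymerase II, had a class k share of 7.89% and 10.2% in hPSC and 33.7% and 53.3% in ectoderm (edgeR adjusted p = 0.0204, and 0.124 without hPSC repeat 2, 0.147 without ectoderm repeat 1 and 0.562 without ectoderm repeat 2). SRRM1, a splicing coactivator, went from 1.38% and 0% to 6.77% and 12.5% in mesoderm (edgeR adjusted p = 0.000305, and 0.0997 without hPSC repeat 2 and 0.159 without mesoderm repeat 2).

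**Figure D4:**
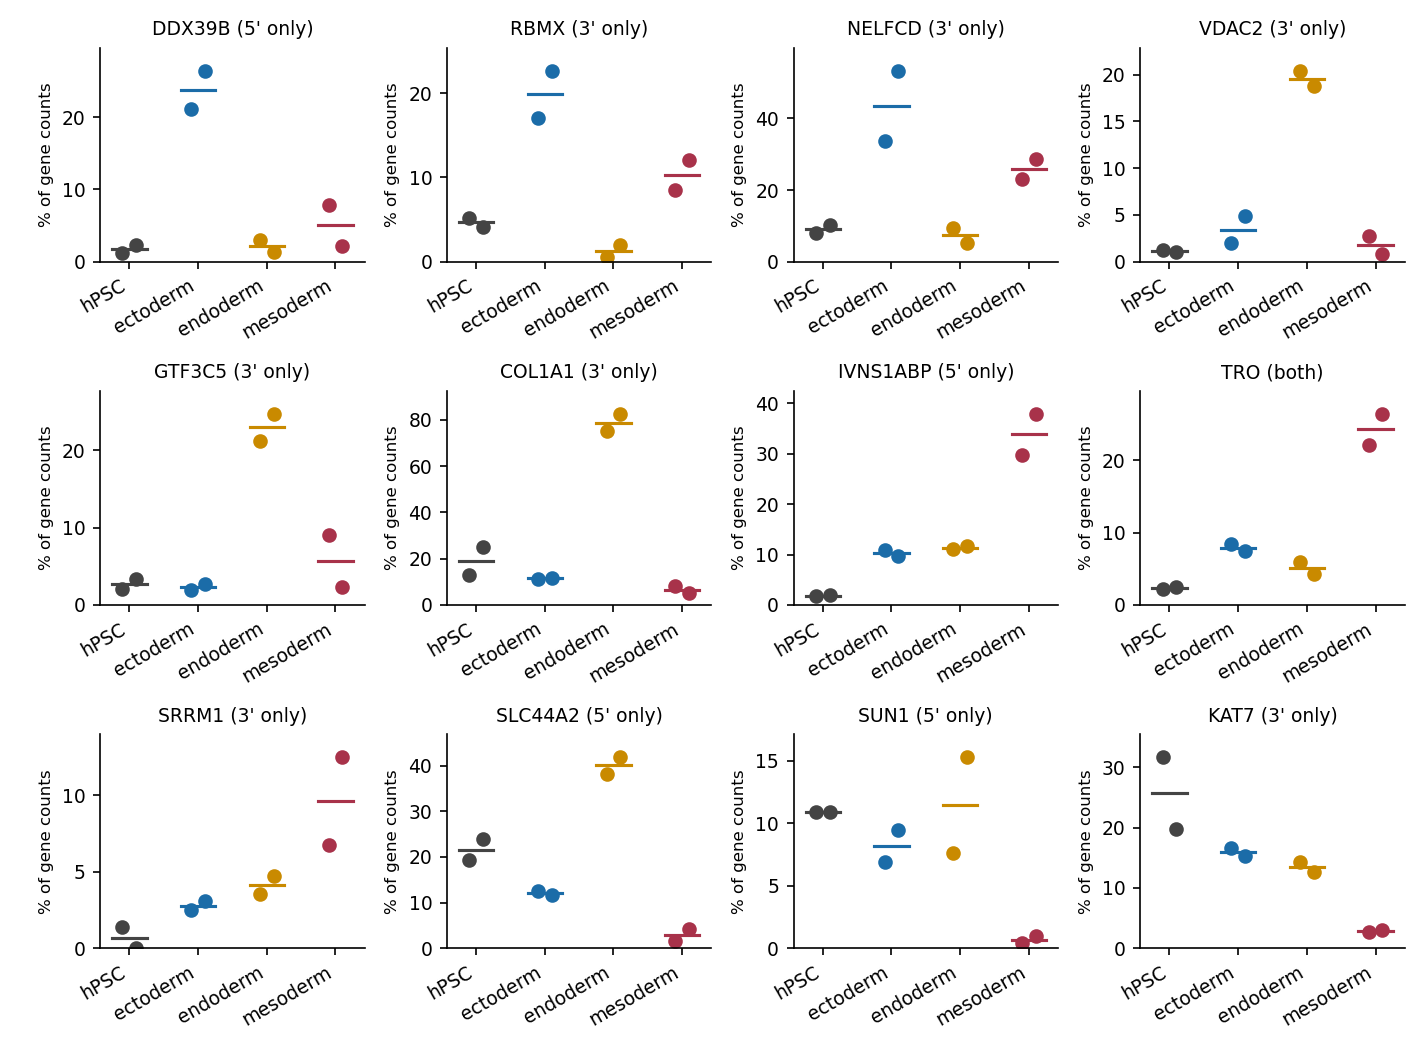
Class k transcript counts in percent of their gene's counts (vertical axes, scaled per gene from 0), with points for libraries and bars for group means. DDX39B, RBMX and NELFCD are highest in ectoderm, VDAC2, GTF3C5 and COL1A1 in endoderm, IVNS1ABP, TRO and SRRM1 in mesoderm, and SLC44A2, SUN1 and KAT7 are lowest in mesoderm.

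**Figure D5:**
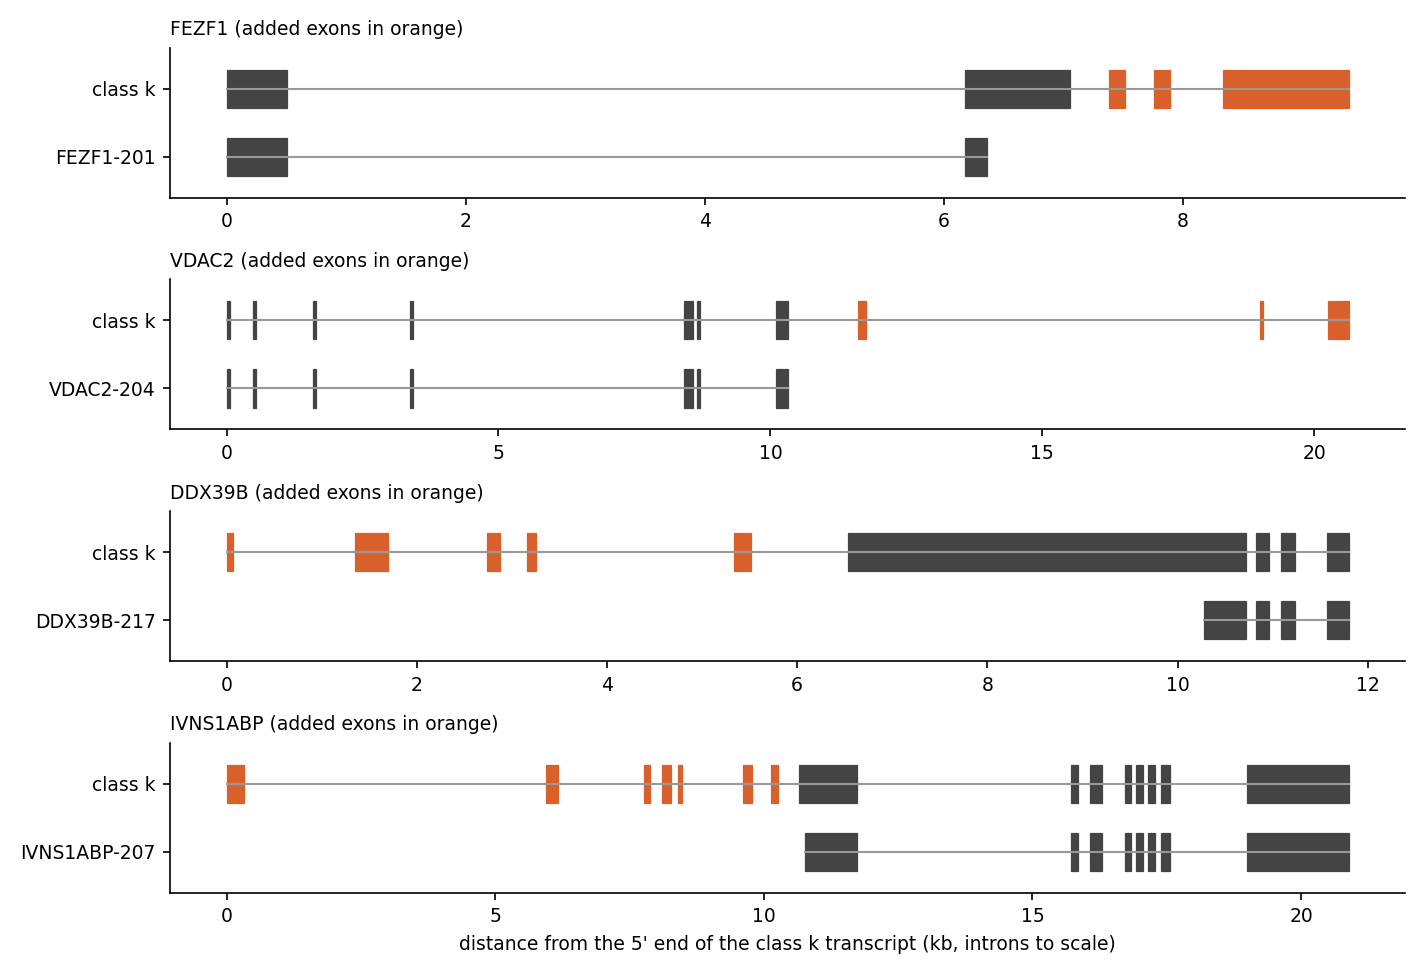
Exons (boxes) and introns (lines) of the class k transcript and its contained reference for 4 genes, drawn 5' to 3' against the distance in kb from the class k transcript's 5' end, with added exons in orange. FEZF1 and VDAC2 each add 3 exons at the 3' side, DDX39B adds 5 and IVNS1ABP 7 at the 5' side, and the long black exon of DDX39B is the one that runs through annotated introns.

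Class k transcripts were counted in lists of genes, against 6526 of all 21221 genes (30.8%) that had one. None of 14 pluripotency genes had one, while 11 of 16 genes of transposon silencing (68.8%) had 31, and 14 of 27 splicing regulators (51.9%) had 26. Genes of cleavage and polyadenylation had one in 8 of 19 (42.1%). Other lists lay below the share of all genes, with 2 of 28 transposon-derived genes (7.14%) and 4 of 35 microRNA host genes (11.4%). Among noncoding genes it was 63 of 398 named LINC (15.8%), 101 of 615 named as antisense (16.4%) and 5 of 25 named SNHG (20%). No test was run on these shares, and the lists were not matched to all genes by level or exon number. The calls in these lists rest on few tested members, and the shares called over all tested transcripts were 23.8% higher and 22.1% lower in ectoderm, with 13.1% and 13.6% for endoderm and 16.5% and 16.3% for mesoderm. In the silencing list 6 class k transcripts were tested, of which 2 were higher and 1 lower in ectoderm, 2 lower in endoderm, and 1 and 1 in mesoderm. TRIM28, the corepressor of KRAB zinc finger proteins, was the lower one in each layer: its 3' extension stood at 131 and 210 CPM in hPSC, 44.4 and 40.9 in endoderm, 62.7 and 65.1 in ectoderm and 37.7 and 17.9 in mesoderm. Both hPSC libraries lay above all others, and the log2 fold changes were -1.74 ± 0.39 in endoderm, -1.67 ± 0.37 in ectoderm and -2.73 ± 0.42 in mesoderm (SE; edgeR adjusted p = 0.004, 0.00182 and 0.000151). HELLS, a chromatin remodeller needed for DNA methylation, had a 3' extension counted 10 and 9 times in hPSC and 0 and 2 times in endoderm, the other lower one there (edgeR adjusted p = 0.0181). The 2 higher in ectoderm were another class k transcript of HELLS (log2 fold change 1.32 ± 0.51, edgeR adjusted p = 0.0442) and 1 of CBX3 (2.05 ± 0.64, 0.0159). That of CBX3 was also the higher one in mesoderm (2.51 ± 0.65, 0.00863).

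Of 9 tested class k transcripts of splicing regulators, 3 were higher and 1 lower in ectoderm, and 1 and 1 in mesoderm. In endoderm the smallest of their adjusted p was 0.0874, for HNRNPK (edgeR). The higher ones in ectoderm belonged to SRSF10, CELF1 and MBNL2. That of MBNL2, a regulator of developmental splicing, was counted 0 and 1 times in hPSC, 0 in endoderm, 55 and 37 in ectoderm and 22 and 19 in mesoderm. It made up 54.5% and 48.7% of the gene's counts in ectoderm, and the levels in ectoderm and mesoderm lay above every hPSC and endoderm library (edgeR adjusted p = 0.000193 and 0.000294). The poly(A) polymerase gene PAPOLA, on the list of cleavage and polyadenylation, had 4 and 0 counts in hPSC, 5 and 4 in endoderm, 109 and 103 in ectoderm and 12 and 20 in mesoderm. It rose in ectoderm (log2 fold change 4.46 ± 0.63, edgeR adjusted p = 7.23e-05) and mesoderm (2.91 ± 0.73, 0.00639). Of the 488 zinc finger genes named ZNF, 176 (36.1%) had 525 class k transcripts, of which 12 were tested. In edgeR's test 6 of these were higher in ectoderm, 2 higher and 1 lower in endoderm, and 4 higher and 1 lower in mesoderm. Ribosomal protein genes were nearly free of them: 7 of 83 had one, and they held 0.205% to 0.537% of those genes' counts in the 4 groups.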

How the data were processed

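The authors deposited raw read counts per transcript of a combined assembly for 8 long-read libraries. The deposited endoderm columns were handled as estimated counts in name only, since their values are whole like the others and nothing was rounded. Per the submitters' processing notes, minimap2, StringTie and the build GRCh38 (hg38) were used; versions, the counter and the use of strand are not given in the sources used here. Class codes come from the authors' assembly. The members and lists were chosen with earlier results of these data known. Contained references took their structure from GENCODE 29, and otherwise from the assembled match, and sides were read on the transcript's strand. Gene counts are sums over transcripts with the same gene identifier. In 1 column of values no sample was named, and it was not used.

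Tests of counts used edgeR 4.0.16 with R 4.3.3 (TMM, filterByExpr at a minimum count of 10, glmQLFit and glmQLFTest over 8 libraries, diffSpliceDGE for transcript choice, Benjamini-Hochberg adjustment at 0.05, two-sided), and with DESeq2 1.42.0 as an alternative. Group values were tested by exact permutation of F over every way to divide the libraries into 4 pairs. Checked on simulated data with 200 changed transcripts, the test found 129 in the ectoderm comparison, 104 in endoderm and 106 in mesoderm, with 8 false calls of 137, 6 of 110 and 14 of 120 (5.84%, 5.45% and 11.7%). In the test of choice, 100, 97 and 100 of 100 genes with exchanged transcripts were found, among 103, 105 and 106 genes called. The exchanges were made only in genes whose top transcript stood at least 4 times above the second, so recovery of smaller changes in share was not checked. Named transcripts were the 10 most abundant, the 3 with the smallest adjusted p per layer and direction with at least 10 CPM in the higher group, the 2 with the smallest p of transcript choice, the 2 most abundant per side not yet named, and the tested ones of the gene lists. Alternatives covered normalization, filters, single libraries, a block by repeat number, length and the assemblies that hold a transcript.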

Additional observations from a re-analysis of the deposited data

Results flagged for a closer look

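The effects against hPSC had opposite signs in different layers, both past the threshold, for several class k transcripts. The difference between layers was taken from the same edgeR fit. Only transcripts with such opposite calls are listed here, so a small p for the difference was all but fixed by that choice. The p-values below therefore give no support beyond the calls themselves. For the less abundant class k transcript of PLD3, a phospholipase D family member of lysosomes, ectoderm minus mesoderm was -3.06 on the log2 scale (adjusted p = 1.15e-05). For the class k transcript of RBMX with 1 added 3' exon, ectoderm minus endoderm was 4.94 (adjusted p = 2.92e-06). For RAB17 the fitted ectoderm minus endoderm difference was -10.01 (adjusted p = 8.94e-08), a value that depends on the prior count because both ectoderm libraries were at 0. The class k transcripts of LMNA gave -5.73 and -5.08 for ectoderm minus endoderm (adjusted p = 8.97e-08 and 8.40e-08) and -4.65 and -4.14 for ectoderm minus mesoderm (adjusted p = 8.84e-07 and 6.94e-07). BUB1B gave 5.62 for ectoderm minus endoderm (adjusted p = 2.41e-06), and PRKCSH, the gene of a glucosidase II subunit, gave -2.55 (adjusted p = 9.47e-06). SLC44A2 gave 3.67 for endoderm minus mesoderm (adjusted p = 7.32e-06). COL1A1, chosen after its values were seen, gave -3.46 for ectoderm minus mesoderm (adjusted p = 5.11e-06).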

How the results depend on the processing

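Of 214 alternative values of group measures and counts, 139 kept their direction and side of the threshold, 4 lost significance, 14 gained it, 3 reversed and 54 moved. Of 334 for the 32 calls by which named transcripts were chosen, 307 kept their call, 27 lost it and 0 reversed. The share calls of KAT7, RAB17 and TFPI, and of IVNS1ABP in ectoderm and endoderm, were not among these 32. That of TFPI changed sign without hPSC repeat 1 or 2. The causes were not tested, other than that stricter or looser filters change how many transcripts are tested. Group measures are given as the range between the highest and lowest group mean, and here a call is an exact permutation p under 0.05 before adjustment, unlike the adjusted values given with the results. The class k share of library counts (2.61 percentage points) reversed to 0.464 with transcripts of 1000 to 3000 nt alone, where endoderm was highest and ectoderm lowest. The share within genes (1.40) reversed to 6.08 there and to 5.81 with transcripts held by all 4 assemblies, a setting chosen after seeing the data, and as a median over genes it was 2.55. The 5' share (3.56) passed with transcripts held by at least 2 assemblies (4.58), of 1000 to 3000 nt (7.60), with at least 10 counts (4.12), held by all 4 (7.11) or with the reference structure taken from the assembled match alone (7.22). The 3' share (5.13) passed at 1000 to 3000 nt (7.11), held by all 4 (10.25) and with the assembled match (7.57). The share at both sides lost its call when held by all 4 (4.17). Detection at equal depth lost it at 1000 to 3000 nt (281 transcripts) and held by all 4 (31).

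With 1 library left out, these ranges ran from 2.38 to 2.84 for the library share, 1.24 to 2.04 within genes, 3.15 to 4.57 for the 5' side, 4.66 to 6.69 for the 3' side, 3.45 to 4.27 for both sides and 2729.5 to 2953.5 for detection. Both the 5' share and the share within genes passed without either hPSC library. Counts of class k transcripts higher and lower ran from 181 to 409 and 54 to 193 in ectoderm, with 79 to 179 and 39 to 168 for endoderm and 115 to 311 and 50 to 206 for mesoderm. Those with a higher and lower gene share ran from 1 to 20 and 0 to 12 in ectoderm, with 3 to 12 and 0 to 4 for endoderm and 2 to 16 and 0 to 22 for mesoderm. A group with 1 library left is assumed to vary like the others.

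Without a filter on low counts, 783 were higher in ectoderm and 196 in endoderm, and gene share was higher for 8 and lower for 2 in ectoderm and higher for 4 in mesoderm. At a minimum count of 20, 110 were higher and 60 lower in ectoderm, with 73 and 58 for endoderm and 93 and 60 for mesoderm, and gene share was higher for 7 in ectoderm and 6 in mesoderm. With only the libraries of the 2 groups compared, gene share was higher for 8 and lower for 2 in ectoderm, 132 were higher and 67 lower in mesoderm, and gene share there was higher for 6 and lower for 3. DESeq2 gave 113 and 52 in ectoderm, with 71 and 36 for endoderm and 80 and 49 for mesoderm.

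Libraries with the same repeat number did not deviate together (correlations of -0.0464 to 0.158 between groups), so the numbers were not taken as pairs. With a block for the repeat number, the share at both sides kept its range of 3.73 with an exact permutation p of 0.0833, and the ectoderm counts were 279 higher and 110 lower. No count moved by over 1.5 times, and among named transcripts the block ended the call for COL1A1 in mesoderm (edgeR adjusted p = 0.0945). For the 9047 class k transcripts with fewer than 10 counts over the 8 libraries, depth limits what can be measured.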

Other observations

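The gene with the most class k transcripts was SNHG14, a long imprinted noncoding host gene on chromosome 15 whose introns hold many small nucleolar RNAs, with 155. The locus was looked at after its values were seen. On its strand, chr15:24981994-25122561, 216 class k transcripts of 14 listed genes were found, 53 of them under SNORD116 copies and 7 under SNORD107. They held up to 43 exons with a median length of 7100 nt, and 199 were held by 1 group assembly only. Their summed level was 354 and 384 CPM in hPSC, 120 and 118 in endoderm, 656 and 665 in ectoderm and 151 and 157 in mesoderm. Ectoderm was highest and endoderm lowest, and the groups did not overlap. All transcripts of the locus together stood at 489 and 518 CPM in hPSC, 853 in both ectoderm libraries, 171 and 142 in endoderm and 200 and 228 in mesoderm. The copies share sequence, so the values per gene are uncertain.

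Some genes with many class k transcripts differed in their share between groups, with no test run. ATXN2L, the gene of a stress granule protein, had 42, which held 65.7% and 81.7% of its counts in hPSC, 80.1% and 90.7% in endoderm, 66.2% and 63.5% in ectoderm and 59.0% and 54.3% in mesoderm. STK36, a kinase tied to Hedgehog signalling and cilia, had 35, which held 34.8% and 30% in hPSC, 31.6% and 36.8% in endoderm, 77.0% and 80.9% in ectoderm and 50.0% and 59.1% in mesoderm. NPIPA9, with 73, belongs to a family of near-identical copies, so its share of 94.1% to 100% is uncertain.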
